A study of Oryza sativa with 6 samples.

Results

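The 6 genes described here are PT1, PT2, PT4, PT6 and PT8, members of the PHT1 family of phosphate transporters, and PHO1;2, a phosphate exporter of the PHO1 family that is not itself a PHT1 gene. They were taken by locus (Os03g0150600, Os03g0150800, Os04g0186400, Os08g0564000, Os10g0444700 and Os02g0809800, in that order) and are 6 of the 37863 loci of the count table. All 6 had counts in every library. RNA came from rice root tips (Oryza sativa cultivar Kitaake), cut up to 1 cm from the apex at 15 DAT. One group of 3 libraries came from rice grown alone (control, R), and the other group of 3 from rice grown with the living floating fern Azolla filiculoides (co-cultivated, R+Af). In both groups seedlings 13 days old had been moved into foil-wrapped hydroponic boxes of 4 plants with about 5 L of Yoshida solution, without aeration. The solution was changed every 2 weeks. Light was given for 14 h per day at 220 µmol per square metre per second, with 25 °C by day and 19 °C by night. Dying fern was replaced with fresh fern in the co-cultivated boxes, and the control boxes had a surface cover to keep algae out, so effects of the fern and of the missing cover cannot be told apart.

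PHT1 proteins sit in the plasma membrane and bring inorganic phosphate into the cell together with protons. In rice roots some of them take phosphate from the soil solution and others move it between tissues, while PHO1 proteins export it from cells around the vessels into the xylem. Many PHT1 genes are turned up when phosphate runs short, through PHR transcription factors that SPX proteins hold back while phosphate is plentiful. The comparison asks whether the fern's presence above the roots went with a change in these transcripts.

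Total estimated counts per library ran from 21551508 to 25120456. The 7 root marker loci were detected in all 6 libraries, with LSI1, a silicon transporter gene of roots, at 259 to 1116 CPM (counts scaled to library size, with TMM factors between libraries). The 7 leaf marker loci together reached 2.79 to 28.2 CPM, and 2 of them had libraries at 0. No library was set apart by its labels. Bulk RNA cannot tell fewer cells of a type from less RNA per cell.

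Of the 6 genes, PT6 rose in the co-cultivated root tips, and it was the single one past the threshold (edgeR quasi-likelihood test, Benjamini-Hochberg adjusted p under 0.05 over all 24615 tested loci). PT6 entered the test through the co-cultivated group, since only 2 control libraries lay above the count filter, and such entry favours a difference. With no filter it was also called (edgeR adjusted p = 0.0227). Over all tested loci, 1.46% were called higher and 1.17% lower. At an unadjusted edgeR p under 0.05, 4 of the 6 were higher and 0 lower, against 10.2% of all tested loci in each direction. DESeq2 called 3 of the 6 higher and 0 lower (5.4% and 3.42% of the loci it tested), and limma-voom called 0 (1.26% and 1.02%). PT2, PT4 and PT8 were also higher in every co-cultivated library than in any control library without passing the threshold, and PT1 and PHO1;2 overlapped between the groups. The 6 log2 fold changes were all positive, as were 47.3% of those of all tested loci. They ran from 0.09 to 3.95, with a median of 1.39, against a median of −0.03 over all tested loci. Groups that did not overlap, with the co-cultivated group higher, were seen for 4 of the 6 genes and for 12.4% of all tested loci.

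**Figure D1:**
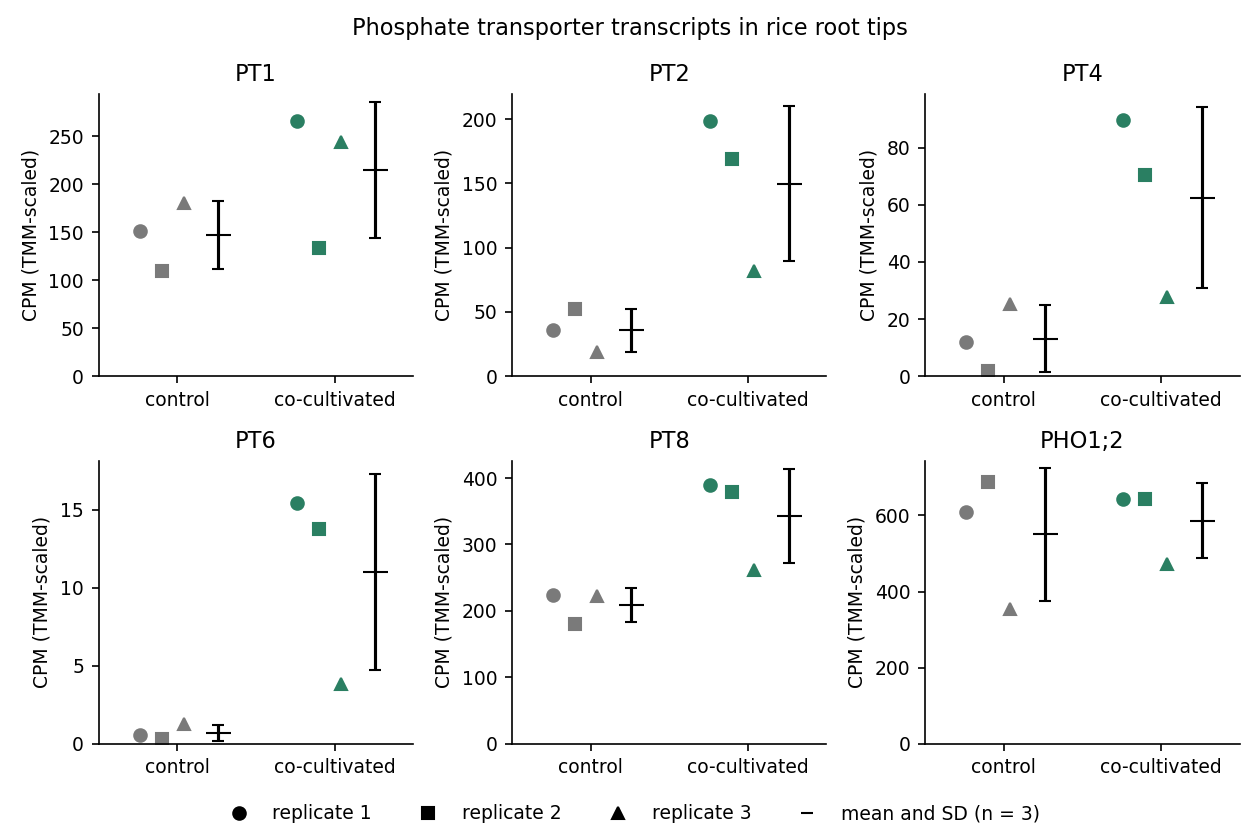
CPM of the 6 genes in each library, on linear axes from 0 that differ in scale; symbols mark replicates 1 to 3, whose numbers the labels do not say pair libraries, and the bar beside each group is the mean and SD (n = 3). PT2, PT4, PT6 and PT8 lie higher in all co-cultivated libraries, and co-cultivated replicate 3 is the lowest of its group for every gene but PT1.

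PT6 encodes a high-affinity transporter of rice that acts in uptake and in movement of phosphate within the plant. It held 13, 6 and 30 counts in control replicates 1, 2 and 3, and 348, 342 and 97 counts in co-cultivated replicates 1, 2 and 3. Scaled for depth, these were 0.567, 0.276 and 1.27 CPM against 15.4, 13.8 and 3.83 CPM. The lowest co-cultivated library was thus above the highest control library, and co-cultivated replicate 3 lay well below the other co-cultivated libraries. The means were 0.703 ± 0.509 CPM in the control group and 11.0 ± 6.26 CPM in the co-cultivated group (SD, n = 3 each), with a log2 fold change of 3.95 and an SE of 0.70 (edgeR adjusted p = 0.0359). The count filter lay at 0.424 CPM, which control replicate 2 did not reach.

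The PT6 call depended on which libraries were kept. In fits without 1 library it was called when either replicate 3 was left out (edgeR adjusted p = 0.0438 for the control and 0.0273 for the co-cultivated one). Without control replicates 1 or 2 the edgeR adjusted p was 0.146 and 0.0540, and without co-cultivated replicates 1 or 2 it was 0.137 and 0.0799. The log2 fold change of PT6 stayed between 3.57 and 4.68 in these 6 fits. PT6 was called by DESeq2 (adjusted p = 4.76e-08) and not by limma-voom (adjusted p = 0.0856).

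PT2, a low-affinity transporter that works in the stele and carries phosphate from root to shoot, had a large difference that missed the threshold. Control replicates 1, 2 and 3 were at 35.7, 52.2 and 19.0 CPM, and co-cultivated replicates 1, 2 and 3 at 199, 169 and 82.1 CPM. The groups did not overlap, and replicate 3 was the lowest library within each group. The means were 35.6 ± 16.6 and 149.8 ± 60.5 CPM (SD, n = 3 each), with a log2 fold change of 2.07 and an SE of 0.44 (edgeR adjusted p = 0.0608). Without control replicate 2, the highest control library, PT2 passed (log2 fold change 2.45, edgeR adjusted p = 0.0460), and in the other fits without 1 library the edgeR adjusted p ran up to 0.201. DESeq2 called PT2 (adjusted p = 8.75e-05).

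PT4, which takes part in phosphate acquisition by roots, was the most uneven of the 6 genes between replicates of the control group. It was at 12.1, 1.79 and 25.3 CPM in control replicates 1, 2 and 3, and at 89.8, 70.3 and 27.6 CPM in co-cultivated replicates 1, 2 and 3. Control replicate 3 and co-cultivated replicate 3 nearly met, and control replicate 2 held only 39 counts of the gene. The log2 fold change was 2.26 with an SE of 0.83 (edgeR adjusted p = 0.190), from 13.1 ± 11.8 to 62.6 ± 31.8 CPM (SD, n = 3 each). It ran from 1.74 without control replicate 2 to 3.16 without control replicate 3, and was called in 0 of the 6 fits without 1 library, although its unadjusted edgeR p with all libraries was 0.0293. DESeq2 and limma-voom did not call PT4 (adjusted p = 0.162 and 0.150).

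PT8, a high-affinity transporter with a broad part in phosphate uptake, showed a smaller and more even difference. Control replicates 1, 2 and 3 were at 224, 179.8 and 223 CPM, and co-cultivated replicates 1, 2 and 3 at 389, 378 and 262 CPM. No co-cultivated library fell within the control range. The means were 209 ± 25.3 and 343 ± 70.7 CPM (SD, n = 3 each), with a log2 fold change of 0.72 and an SE of 0.21 (edgeR adjusted p = 0.119). The log2 fold change of PT8 stayed between 0.62 and 0.88 in the fits without 1 library, none of which called it. DESeq2 called PT8 (adjusted p = 0.0245).

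PT1 is a transporter known for phosphate uptake when supply is ample, with a transcript that depends little on phosphate supply. Control replicates 1, 2 and 3 were at 151, 109.9 and 180.2 CPM, and co-cultivated replicates 1, 2 and 3 at 266, 134 and 244 CPM. Co-cultivated replicate 2 lay inside the control range, and the other co-cultivated libraries lay above it. The means were 147 ± 35.3 and 215 ± 71.1 CPM (SD, n = 3 each), with a log2 fold change of 0.55 and an SE of 0.30 (edgeR adjusted p = 0.350). PT1 was the single member of the 6 whose lowest co-cultivated library was not replicate 3.

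PHO1;2, which loads phosphate into the xylem, differed least between the groups. Control replicates 1, 2 and 3 were at 608, 689 and 354 CPM, and co-cultivated replicates 1, 2 and 3 at 643, 643 and 473 CPM. All co-cultivated libraries lay inside the control range. The means were 550.3 ± 174 and 586 ± 98.4 CPM (SD, n = 3 each), with a log2 fold change of 0.09 and an SE of 0.28 (edgeR adjusted p = 0.887), and without control replicate 3 the sign turned (−0.15, edgeR adjusted p = 0.774). In rice this locus also carries an antisense transcript. The libraries were made to keep strand, but the strand setting of the counting is not given in the sources used here, so reads of PHO1;2 and of its antisense partner cannot be told apart.

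**Figure D2:**
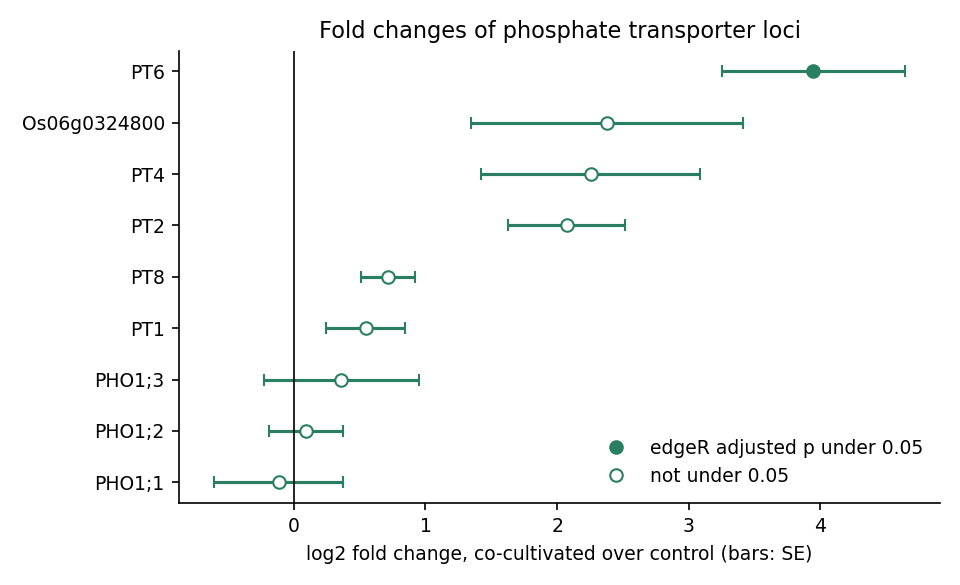
Log2 fold change of co-cultivated over control libraries (x axis) with its SE for the 6 genes and the 3 tested relatives with more than 3 control counts; filled points have an edgeR adjusted p under 0.05. PT6 at 3.95 is the one filled point, and PHO1;1, PHO1;2 and PHO1;3 lie within 1 SE of 0.

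Within the control group the genes did not follow one order of libraries. PT1, PT4 and PT6 were lowest in control replicate 2 and highest in control replicate 3, an order held by 25.8% of all tested loci. PT2 and PHO1;2 ran the other way, lowest in control replicate 3 and highest in control replicate 2, as did 25.2% of all tested loci. PT8 was lowest in control replicate 2, with control replicates 1 and 3 close together. In the co-cultivated group, replicate 3 was the lowest library for 5 of the 6 genes, and for 31.95% of all tested loci.

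Ratios taken within a library do not depend on scaling between libraries, and PT1 served as the denominator. PT6 counts per PT1 count were 0.00390, 0.00272 and 0.00714 in control replicates 1, 2 and 3, and 0.0579, 0.103 and 0.0158 in co-cultivated replicates 1, 2 and 3. The groups did not overlap, and the log2 ratio was higher by 3.43 in the co-cultivated group, from −7.89 ± 0.70 to −4.46 ± 1.39 (SD, n = 3 each; two-sided exact permutation p = 0.1, 0.333 adjusted over 5 ratios). This p is the smallest that 3 libraries against 3 can give, so no ratio could pass 0.05. The log2 ratios of PT2 and PT4 to PT1 were higher by 1.58 and 2.25 with overlapping groups (exact permutation p = 0.2 for each, 0.333 adjusted). These differences rested in part on single libraries. For PT2, dropping control replicate 3 left a difference of 1.02 and dropping co-cultivated replicate 2 left 1.14, whereas dropping control replicate 2 or co-cultivated replicate 3 raised it to 2.11 and 2.09. For PT4 the lowest value, 1.35, came with control replicate 2 dropped, and the highest, 2.90, with control replicate 3 dropped. For PT6 the difference stayed between 2.84 and 4.19. For PT8 the difference was 0.19 and for PHO1;2 −0.38 (exact permutation p = 0.9 and 0.6, adjusted 0.9 and 0.75), and each changed sign when 1 library was left out.

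**Figure D3:**
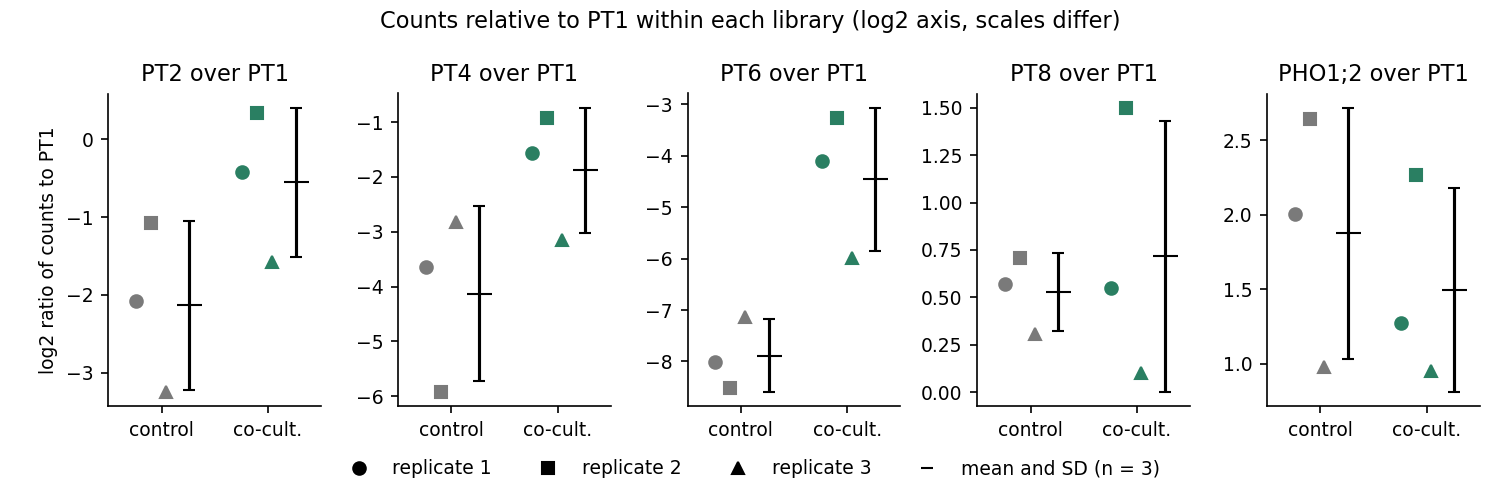
Log2 ratio of the counts of each gene to those of PT1 in the same library (y axes differ in range); symbols mark replicates 1 to 3 and the bar is the mean and SD (n = 3). For PT6 the groups are apart, and for the other 4 ratios they overlap.

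The 13 PHT1 loci together reached 424, 345 and 449 CPM in control replicates 1, 2 and 3 and 982, 780.3 and 623 CPM in co-cultivated replicates 1, 2 and 3. The groups did not overlap, with means of 406 ± 54.3 and 795 ± 179.8 CPM (SD, n = 3 each), a ratio of 1.96. The 5 PHT1 genes described above held between 97.7% and 99.9% of these counts in every library. Shares below are of counts and are not corrected for gene length, so they compare 1 gene between libraries and not the levels of different genes.

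Among the PHT1 genes described above, the shares of PT8 and PT6 in the family counts did not overlap between the groups. PT8 held 49.6% to 52.8% of PHT1 counts in the control libraries and 39.7% to 48.5% in the co-cultivated ones, so its share was lower in every co-cultivated library although its own level was higher. The PT6 share went from 0.165% ± 0.105 to 1.32% ± 0.616 (SD, n = 3 each), without overlap. PT2 held 4.23% to 15.1% in the control libraries and 13.2% to 21.6% in the co-cultivated ones, and PT1 31.8% to 40.1% against 17.1% to 39.2%, both with overlap. The PT4 share was 0.519% to 5.63% against 4.43% to 9.14%, again with overlap. Outside these genes, the shares of PT3, PT10 and PT12 were higher, and that of PT13 lower, in the co-cultivated libraries without overlap. Each of these shares was at most 1.37% in any library.

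**Figure D4:**
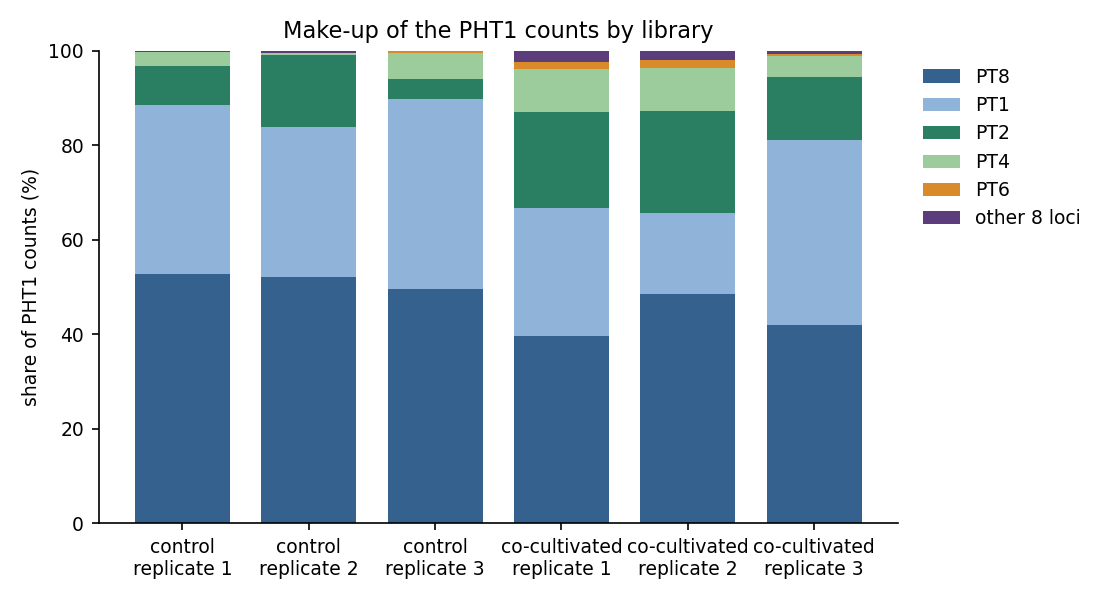
Share of the summed counts of the 13 PHT1 loci held by each gene in each library (stacked bars, percent of counts, not corrected for gene length); "other 8 loci" sums the PHT1 loci outside the 5 genes. The co-cultivated bars hold more PT6 and less PT8 than the control bars, and co-cultivated replicate 3 holds the most PT1 of its group.

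Of the 10 further loci of the PHT1 and PHO1 families, 5 passed the count filter, 2 of these were called higher and 0 lower by edgeR, beside 1.46% and 1.17% of all tested loci. At an unadjusted edgeR p under 0.05, 2 were higher and 0 lower (10.2% of all tested loci in each direction). DESeq2 called 2 higher and 0 lower (5.4% and 3.42%), and limma-voom 0 in either direction (1.26% and 1.02%). The called loci were PT3 and PT10, which both entered the test through the co-cultivated group alone and therefore had to differ. PT3, a transporter for very low phosphate supply whose gene lies next to PT8 on chromosome 10, held 0 counts in all 3 control libraries and 303, 165 and 41 counts in co-cultivated replicates 1, 2 and 3. That is at least 159-fold higher against a floor of 3 counts over the control group (edgeR adjusted p = 0.0453). PT10, a further root uptake transporter, held 1, 1 and 0 counts in control replicates 1, 2 and 3 and 96, 168 and 21 in co-cultivated replicates 1, 2 and 3, a ratio of 134 with an exact 95% counting interval of 36.7 to 1111 (edgeR adjusted p = 0.0277). Such intervals and floors cover counting error only.

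PT3 and PT10 were each called in 1 of the 6 fits without 1 library, the fit that left out co-cultivated replicate 3. In the other fits the edgeR adjusted p reached 0.125 and 0.121. The bound for PT3 ran from 93.6-fold without co-cultivated replicate 1 to 225-fold without co-cultivated replicate 3, and was 104-fold to 109-fold without any 1 control library. The ratio of PT10 ran from 83.5 without co-cultivated replicate 2 to 190.3 without co-cultivated replicate 3, and was 87.5 without control replicate 3. Both were called by DESeq2 (adjusted p = 2.28e-10 and 1.4e-06) and neither by limma-voom (adjusted p = 0.0532 and 0.0834). Both had their lowest co-cultivated count in replicate 3, as PT6 did.

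Os06g0324800, placed in the PHT1 list but without a name in the gene table used, was at 11, 20 and 0 counts in control replicates 1, 2 and 3 and 106, 46 and 19 in co-cultivated replicates 1, 2 and 3. The groups overlapped (log2 fold change 2.38 ± 1.04, edgeR adjusted p = 0.253). PHO1;1 and PHO1;3, the other exporters of the PHO1 family in rice, stood at −0.11 ± 0.49 and 0.36 ± 0.59 with overlapping groups (edgeR adjusted p = 0.921 and 0.773). Thus PHO1;2 and both its relatives lay within 1 SE of no difference, and all 3 changed sign in a fit without 1 library.

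The other 5 PHT1 loci were too low to test, with 0 to 8 counts in any library. PT11, the transporter that rice uses in roots colonised by arbuscular mycorrhizal fungi, held 2, 7 and 0 counts in the control libraries and 0, 0 and 3 in the co-cultivated ones. PT13, which is also known from mycorrhizal roots, held 3, 2 and 8 against 1, 0 and 3. PT5 held 0, 0 and 3 against 0, 0 and 1, PT7 held 0, 0 and 1 against 2, 3 and 6, and PT12 held 0 in every control library against 1, 3 and 1. At this depth these loci did not enter the test. All estimated counts of the 13 PHT1 loci were whole numbers. How reads that match several similar family members were counted is not given in the sources used here, so neighbouring copies such as PT1, PT2 and PT12 on chromosome 3 or PT4, PT5 and PT13 on chromosome 4 may share reads.

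Genes that sense and signal phosphate gave 3 loci called higher and 0 lower of 12 tested (edgeR, beside 1.46% and 1.17% of all tested loci), with a median log2 fold change of 0.55. At an unadjusted edgeR p under 0.05, 6 were higher and 1 lower, beside 10.2% of all tested loci in each direction. The 6 included SPX3, which entered the test through the co-cultivated group alone and therefore had to be higher. DESeq2 called 6 higher and 1 lower (5.4% and 3.42% over all loci), and limma-voom 2 higher and 0 lower (1.26% and 1.02%). SPX2 and SPX6, genes of the SPX proteins that restrain PHR factors, rose by 2.05 ± 0.34 and 2.38 ± 0.40 on the log2 scale (SE, edgeR adjusted p = 0.0301 and 0.0315). The third, Os03g0146800, has no name in the gene table used and rose from 0.718 ± 0.143 to 29.2 ± 14.2 CPM (SD, n = 3 each; log2 fold change 5.34 ± 0.49, edgeR adjusted p = 0.00417). It was called in all 6 fits without 1 library, with a highest edgeR adjusted p of 0.0336. SPX2 was lost when control replicates 1 or 3 or co-cultivated replicates 1 or 2 were left out, and SPX6 in every such fit but that without co-cultivated replicate 3 (highest edgeR adjusted p 0.121 and 0.120). SPX6 was not called by limma-voom (adjusted p = 0.0561). PHR2, the gene of the main activator, stood at −0.0040 ± 0.13 on the log2 scale (edgeR adjusted p = 0.989). The 1 lower locus, Os05g0557700, went from 589.8 ± 137.5 to 272.8 ± 37.2 CPM (SD, n = 3 each) without overlap. Its log2 fold change was −1.11 ± 0.23 (SE, edgeR adjusted p = 0.0539), and DESeq2 called it (adjusted p = 0.000306). SPX3, PHR2 and Os05g0557700 are named after their values were seen.

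Among 9 loci listed for phosphate transporter trafficking and for carriers of organelles, 7 were tested, 1 was called higher and 1 lower by edgeR, beside 1.46% and 1.17% of all tested loci. At an unadjusted edgeR p under 0.05, 3 were higher and 2 lower (10.2% of all tested loci in each direction). DESeq2 called 2 higher and 1 lower (5.4% and 3.42% over all loci), and limma-voom 1 in each direction (1.26% and 1.02%). The median log2 fold change was 0.41. The called loci have no name in the gene table used. Os08g0156600 was at 41.8, 41.0 and 52.2 CPM in control replicates 1, 2 and 3 and at 269, 205 and 156 CPM in co-cultivated replicates 1, 2 and 3 (log2 fold change 2.22 ± 0.23, edgeR adjusted p = 0.00651), and it was called in all fits without 1 library but that without control replicate 1 (edgeR adjusted p = 0.0506). Os06g0129400 fell, with 105.4 ± 9.91 CPM in the control group, 52.3 ± 3.53 CPM in the co-cultivated group (SD, n = 3 each) and −1.01 ± 0.14 (SE) for the log2 fold change (edgeR adjusted p = 0.0153). It was called in 3 of the 6 fits, and lost when control replicate 1 or either of co-cultivated replicates 1 and 3 was left out (highest edgeR adjusted p 0.103). Os02g0678200, also without a name there, had the third smallest p and was not called by edgeR. It was at 5.76, 3.22 and 3.67 CPM in control replicates 1, 2 and 3 and at 9.56, 12.6 and 8.09 CPM in co-cultivated replicates 1, 2 and 3, with no overlap. Its log2 fold change was 1.26 ± 0.29 (SE, edgeR adjusted p = 0.0730), and DESeq2 called it (adjusted p = 0.00299).

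The list of enzymes that recycle phosphate from lipids and organic compounds held 6 loci, of which 5 were tested. By edgeR or limma-voom 0 were called, beside 1.46% of all tested loci called higher and 1.17% lower by edgeR. For limma-voom these shares were 1.26% and 1.02%. The median log2 fold change was 0.48. At an unadjusted edgeR p under 0.05, 2 loci were higher and 0 lower (10.2% of all tested loci in each direction), and DESeq2 called 2 higher and 0 lower (5.4% and 3.42%). One of these loci, Os11g0549615, had only 1 control library above the count filter. Its entry to the edgeR test came through the co-cultivated group, which favours a difference. The members with the smallest p, Os01g0142300, Os11g0549615 and Os05g0387200, were at 1.45, 2.17 and −0.36 (edgeR adjusted p = 0.0795, 0.135 and 0.282). Os01g0142300 passed without co-cultivated replicate 3 (edgeR adjusted p = 0.0381).

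Each of the 6 genes was set beside the other 51 tested loci of the lists by Pearson's r of log2 CPM over the 6 libraries, as a description that takes in the difference between the groups. PT6 was most like SPX6 (r = 0.987) and CSLD1, a root hair gene for a cellulose synthase-like protein (r = 0.976), and PT8 was most like SPX6 (r = 0.985) and PT6 (r = 0.976). PT4 was most like CSLD1 (r = 0.975) and VPE1, a gene of phosphate release from the vacuole (r = 0.965). PT2 was most like LSI1 and LSI2, silicon transporter genes (r = 0.981 and 0.971). PHO1;2 was most like CASP1, a gene of the Casparian strip (r = 0.965), and then SCR1, a patterning gene of the endodermis (r = 0.832). PT1 was most like Os06g0143700 (r = 0.851) and VPE1 (r = 0.815). Among all tested loci, some had a higher r with a gene than its first-named partner had. These were 11 for PT6, 9 for PT8, 68 for PT4, 32 for PT2, 42 for PHO1;2 and 783 for PT1. Above the second-named partner stood 61, 37, 116, 61, 856 and 1159 loci, in the same order of genes.

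Marker loci of root hairs, of roots and of leaves were read beside the transporters. The 4 root hair loci together were at 60.5 to 66.8 CPM in the control libraries and 91.6 to 128 CPM in the co-cultivated ones. All 4 had a positive fold change, as did 47.3% of all tested loci, and 0 were called by edgeR and limma-voom. Over all tested loci edgeR called 1.46% higher and 1.17% lower, and limma-voom 1.26% and 1.02%. At an unadjusted edgeR p under 0.05, 2 were higher and 0 lower (10.2% of all tested loci in each direction). DESeq2 called 2 higher and 0 lower (5.4% and 3.42% over all loci). One of these root hair loci, EXPA17, had only 2 control libraries above the count filter. Like PT6, it entered the edgeR test through the co-cultivated group, which favours a difference. CSLD1 was at 14.3, 6.81 and 18.8 CPM in control replicates 1, 2 and 3 and at 47.7, 51.8 and 25.9 CPM in co-cultivated replicates 1, 2 and 3. The 7 root loci summed to 1512 to 2435 CPM in the control group and 3338 to 5402 CPM in the co-cultivated group. Of these 7, 0 were called by edgeR (1.46% and 1.17% over all loci) or limma-voom (1.26% and 1.02%). At an unadjusted edgeR p under 0.05, 3 were higher and 0 lower (10.2% of all tested loci in each direction). DESeq2 called 3 higher and 0 lower (5.4% and 3.42% over all loci). The sum rested mostly on Os02g0662000, LSI1 and LSI2, which stood at 1.55, 1.08 and 0.99 on the log2 fold scale (adjusted p = 0.117, 0.147 and 0.123 in edgeR). SHR1, CASP1, SCR1 and QHB, genes of root patterning and the Casparian strip, stood at −0.20, 0.06, 0.20 and 0.62, each with overlapping groups. The leaf loci summed to 28.1, 12.1 and 28.2 CPM in control replicates 1, 2 and 3 and to 2.79, 6.45 and 25.0 CPM in co-cultivated replicates 1, 2 and 3. The leaf sums overlapped between the groups. Of 6 tested leaf loci 0 were called by edgeR (1.46% and 1.17% over all loci), DESeq2 (5.4% and 3.42%) or limma-voom (1.26% and 1.02%). At an unadjusted edgeR p under 0.05, 0 were higher and 2 lower (10.2% of all tested loci in each direction). These 2, Os12g0291100 and Os12g0292400, entered the test through the control group alone and therefore had to be lower. Co-cultivated replicate 3 had the lowest PT2, PT4, PT6 and PT8 of its group and the lowest sums of root and root hair loci. Its leaf sum was the highest of its group. Some single loci differed: Os02g0662000 was lowest in co-cultivated replicate 1, and Os01g0897700, a root hair locus, was highest in co-cultivated replicate 3 (58.6 CPM). In the control group, replicate 3 had the lowest root sum and, by a small margin, the highest leaf sum. That library had the highest PT4 and PT6 and the lowest PT2 of the control group. The part of these markers in the differences of the phosphate transporters was not tested.

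**Figure D5:**
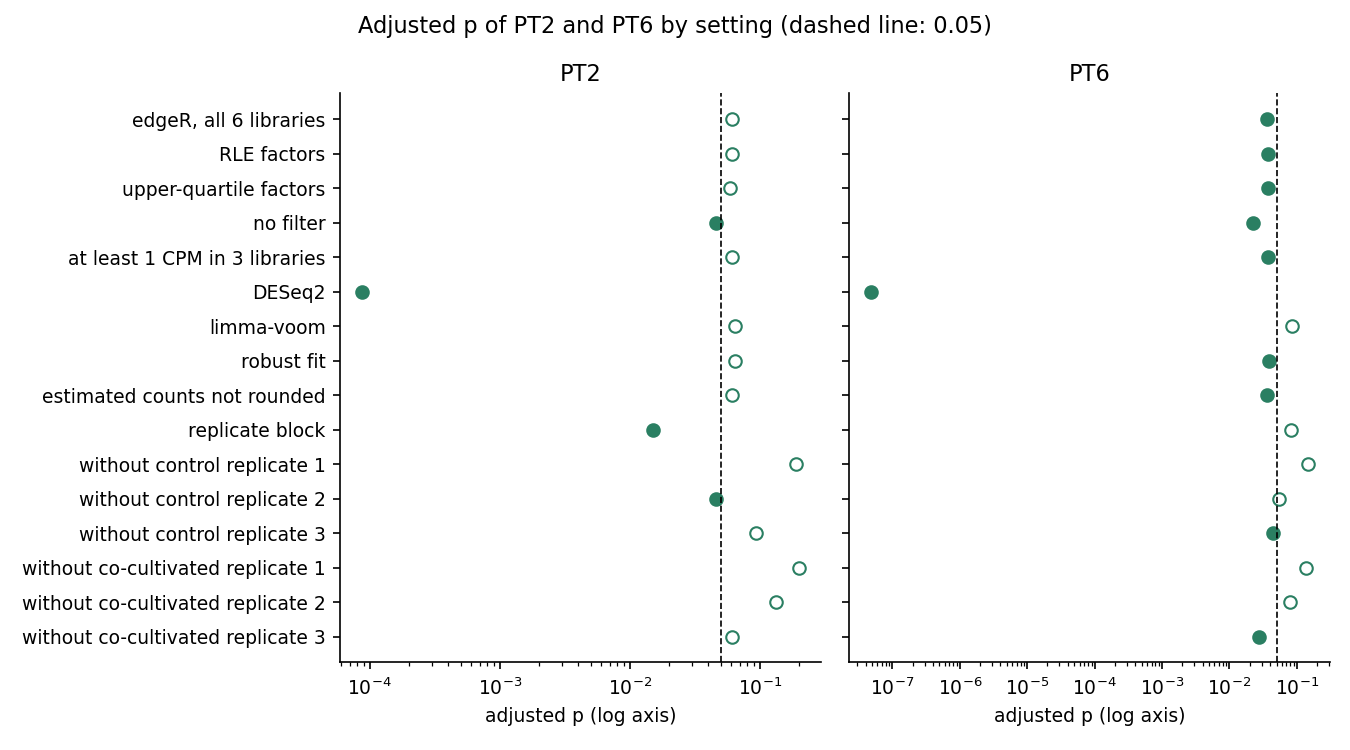
Adjusted p of PT2 and PT6 (x axes, logarithmic) under each setting (rows); filled points are under 0.05, the dashed line. PT6 is called with all 6 libraries under every scaling and filter tried, and is lost with limma-voom, with the replicate block and in 4 of the 6 fits without 1 library.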

How the data were processed

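Poly-A RNA of root tips was sequenced in 6 strand-specific (dUTP) libraries, 3 per group. Per the labels, they are biological replicates and a box of plants is 1 replicate. They also say that the set-up was run 3 times, without tying a library to a run. The deposited table holds estimated counts per locus, which the authors did not scale between libraries. Per the submitters' processing notes, the build was IRGSP-1.0 and DESeq2 1.28.1 was used. Not given in the sources used here are the aligner, the counter with its strand setting, and any filter.

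Estimated counts were rounded to whole numbers (the design had assumed whole counts). Co-cultivated and control libraries were compared with edgeR 4.0.16 in R 4.3.3: a two-sided quasi-likelihood F test after filterByExpr and TMM scaling, with no covariate, all 6 libraries and 4 residual degrees of freedom. A locus was called when its Benjamini-Hochberg adjusted p over 24615 tested loci was under 0.05. The SE is the log2 fold change divided by the square root of F. The test was tried on simulated counts. Ratios to PT1 used a pseudocount of 0.5. Likeness used log2 CPM with a prior count of 2. Replicates of a group differed beyond sampling noise (chi-square per locus from 23.1 to 121). Alternatives were DESeq2 1.42.0, limma-voom (limma 3.58.1), other scalings and filters, a robust fit, unrounded values, a replicate block and each library left out.

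The 6 genes and the 61 listed pairs of symbol and locus were chosen with earlier results of these data known. The table gives no names. A RefSeq gene table of another assembly (ASM3414082v1) placed 37 of the 61 symbols on the chromosome and in the order of their loci, among them all 6 genes, and these are named. The other 24 are given by locus. Named are all loci of both families, the 3 with the smallest p in each other phosphate list, and the 2 most alike to each gene. Besides these, SPX3, PHR2, Os05g0557700 and some marker loci are named. Lengths in the build of the counts, promoters and proteins were not used here, so the planned levels per length and the motif search were left out. No sequence is printed.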

Additional observations from a re-analysis of the deposited data

How the results depend on the processing

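The labels do not say whether replicate numbers pair the libraries, and the values did not settle it. Deviations from the group means correlated at 0.0571, 0.146 and 0.174 for replicates 1, 2 and 3. Pairs of unlike number ran from −0.203 (control replicate 3 with co-cultivated replicate 2) to 0.0762 (control replicate 3 with co-cultivated replicate 1). Control replicate 1 was closest to co-cultivated replicate 2 (0.0583). With a replicate block, 699 loci were called, 469 of them among the 648 called without it; PT2 was called (log2 fold change 2.09, edgeR adjusted p = 0.0150) and PT6 was not (3.85, edgeR adjusted p = 0.0815), nor were SPX2 and SPX6. Without a count filter 2 of the 6 genes were called, PT6 and PT2 (2.07 for PT2, edgeR adjusted p = 0.0459). DESeq2 called 1483 loci higher and 938 lower, and 3 of the 6 genes, with PT2 at 2.09 and PT8 at 0.73. With limma-voom 0 of the 6 genes were called, and PT6 stood at 3.91. RLE and upper-quartile scaling, a filter of 1 CPM, the robust fit and unrounded values kept PT6 as the single call of the 6. Leaving out 1 library gave 56 to 361 loci called higher, 83 to 493 lower, and 0 to 1 of the 6 genes. The log2 fold change then ran from 1.77 to 2.45 for PT2, from 3.57 to 4.68 for PT6 and from −0.15 to 0.28 for PHO1;2. It ran from −0.72 to 0.32 for PHO1;1, from −0.28 to 0.64 for PHO1;3 and from −0.39 to 0.68 for CASP1. The difference in log2 ratio to PT1 ran from −0.20 to 0.50 for PT8 and from −0.83 to 0.0048 for PHO1;2. The cause of these changes was not tested. With 3 libraries per group, a library of 6 to 30 PT6 counts limits the precision of its control level.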
